A study of Rattus norvegicus with 6 samples.

Results

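Cultured cardiomyocytes of newborn rats were compared under biaxial stretch and without treatment. The comparison uses 4 of the series' 6 arrays, 2 of stretched and 2 of untreated control cells. It covers all 31042 probe sets other than the manufacturer's array controls, and the genes described in detail are those outside 5 panels of hypertrophy and stress genes. Those panels (fetal and hypertrophy genes, heat shock, metallothionein, NRF2 and ATF4 genes) hold 180 probe sets, which leaves 30862 probe sets for 14106 named genes. Cells of all groups were cardiomyocytes from Wistar rats aged 1 to 2 days, purified from fibroblasts on a Percoll gradient. The stretch cells had been plated for 36 h on collagen-coated silicone and held for 24 h without serum, and were then extended to 112% in both directions for 24 h. Controls carried no treatment. Phenylephrine at 50 µmol/l, an agonist of α1-adrenergic receptors, was the treatment of the other 2 arrays, which entered the fit and a side comparison. The sources used here do not state the growth surface or serum of the controls, so the membrane and the serum-free period cannot be told apart from stretch. RNA of several cell preparations had been combined, and the labels do not tie the 2 arrays of a group to different cultures. Their spread, and the p-values that rest on it, may therefore be technical.

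Heart muscle cells sense extension through integrins, the sarcomere's Z-discs, stretch-gated channels and the cytoskeleton. The signals reach the nucleus through MAP kinases, actin-controlled cofactors of SRF and the TEAD cofactors YAP and TAZ, and load makes the cells grow in size, which calls for new protein and ribosomes. Rat heart muscle cells lose most of their capacity to divide soon after birth.

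Values are log2 signals as deposited, and a difference of 1 is a 2-fold change. Called means a limma adjusted p under 0.05, adjusted by Benjamini-Hochberg for all 31042 probe sets. A change is given as the difference of the means of 2 and 2 arrays with its standard error (SE) from that fit, n = 2 arrays per group throughout. Where a gene has several probe sets, the one with the highest mean signal stands for it unless another is named. Of all 14217 genes, 1029 had an unadjusted limma p under 0.05, the background for each such count below. After quantile normalization, an alternative run, limma called 203 of them up and 78 down, the background for counts under that setting.

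The 4 arrays had medians between 8.30 and 8.33, and correlations across probe sets between 0.991 and 0.995. Cardiac myocyte markers were bright on every array, with a mean level of 13.57 and 13.46 on the control arrays and 13.49 and 13.64 on the stretch arrays. Limma called 0 of their 20 genes, with 2 unadjusted p-values under 0.05. Fibroblast markers were also present, and they were lower with stretch. Their mean level was 10.42 and 10.40 on the control arrays and 10.21 and 10.15 on the stretch arrays, and 18 of 20 genes lay below 0 in the difference. The median change of the list was -0.21, with 0 calls in limma and 7 unadjusted p-values under 0.05. After quantile normalization 3 were called down. Endothelial markers also leaned down, with 13 of 14 below 0, a median of -0.07 and 2 unadjusted p-values under 0.05. Of 17 macrophage and leukocyte markers 12 lay below 0, with a median of -0.03 and 0 unadjusted p-values under 0.05. Limma called 0 genes in either list. Of 13 smooth muscle and pericyte markers 7 lay below 0, with a median of -0.03, and 1 was called up. In bulk RNA, fewer cells of a type and less RNA per cell cannot be told apart.

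More genes rose with stretch than fell outside the panels. Of the 107 calls among all probe sets (0.345%), 84 lay outside the panels, 72 of them rises and 12 falls. Over all probe sets 0.306% were called up and 0.0387% down. The 84 calls include 68 probe sets with 1 gene symbol, which name 51 genes that rose and 12 that fell, 1 with several symbols and 15 with no symbol. Calls outside the panels were mostly under 2-fold: 54 of 84 changed by less than 1 log2 unit, whereas 18 of the 23 panel calls changed by 1 or more. All 107 called probe sets had no overlap between stretch and control arrays, a pattern that 19.4% of all probe sets showed upward and 16.5% downward. The number of calls depended on each array. It was 22 outside the panels without control replicate 1, 15 without control replicate 2, 15 without stretch replicate 1 and 32 without stretch replicate 2.

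**Figure D1:**
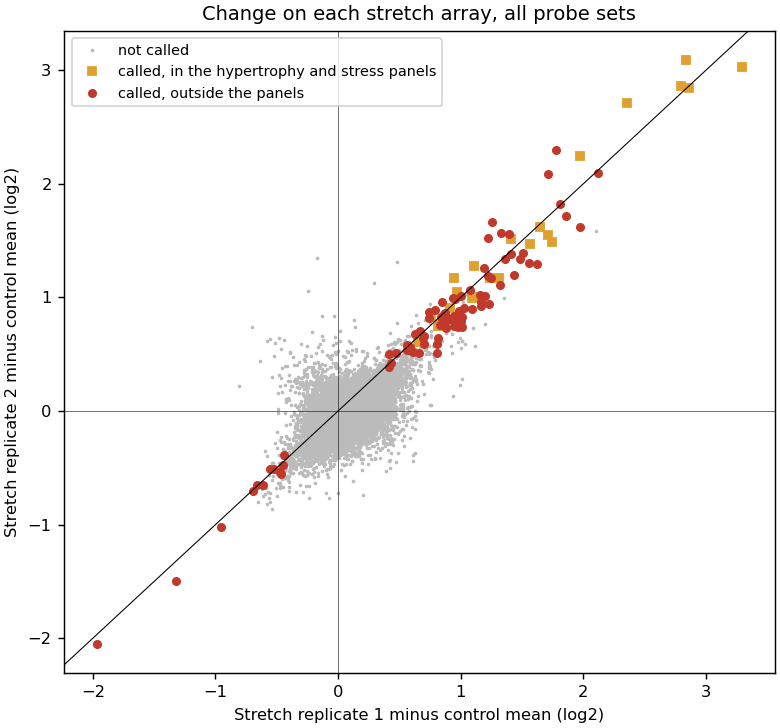
Change of each of the 31042 probe sets on stretch replicate 1 (horizontal axis) and stretch replicate 2 (vertical axis), each minus the mean of the 2 control arrays, in log2 units. Squares are the 23 calls in the hypertrophy and stress panels, filled circles the 84 calls outside them and grey points all others; the called probe sets lie near the line of equal change, from Pla2g2a at about -2 to the panel genes at about 3.

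Changes of middle size, here 0.5 to 1 log2 unit without overlap of the arrays, numbered 179 upward and 46 downward outside the panels, for 139 and 40 named genes. Over all probe sets 0.657% lay that far above control and 0.151% below. Limma called 40 of the 179 and 8 of the 46. Of the 182 upward differences of that size, 3 were left out because their arrays overlapped, while all 46 downward ones were free of overlap. In 86 of the upward and 17 of the downward changes, the wider gap between the arrays of a group was under 25% of the change. That gap exceeded 50% of the change in 22 and 6. Called members of the upward class had a median gap of 0.11, and those not called had 0.17. Most changes without overlap were smaller, 5707 upward and 5053 downward at under 0.5 log2, of which 4 rises and 2 falls were called, and 31 upward and 2 downward changes reached 1 or more, 28 and 2 of them called.

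The arrays of a group differed in a way that depended on signal. In the brightest tercile of probe sets, control replicate 1 read above control replicate 2 in 74.8%, and stretch replicate 1 above stretch replicate 2 in 75.2%. In the dimmest tercile these shares were 41.1% and 41.2%. The SD of the gap over all probe sets was 0.148 for the controls and 0.147 for the stretch arrays, so over all probe sets neither group was the noisier. Among the 72 called rises outside the panels the SD of the gap was 0.110 and 0.166, and among the 12 falls 0.068 and 0.063. Crossing the arrays shows what this gap does to counts of change. Stretch replicate 1 minus control replicate 2 put 838 probe sets 0.5 or more higher and 128 lower, and stretch replicate 2 minus control replicate 1 put 340 higher and 374 lower. Replicate 1 minus replicate 1 gave 293 and 57, and replicate 2 minus replicate 2 gave 254 and 63. The median of the 72 called rises outside the panels lay between 0.83 and 0.99 in the 4 pairs of arrays, and that of the 12 falls between -0.63 and -0.54. Of all 95 called rises, panels included, 70 lay in the brightest tercile, 20 in the middle and 5 in the dimmest, whereas 8 of the 12 falls lay in the middle tercile.

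**Figure D2:**
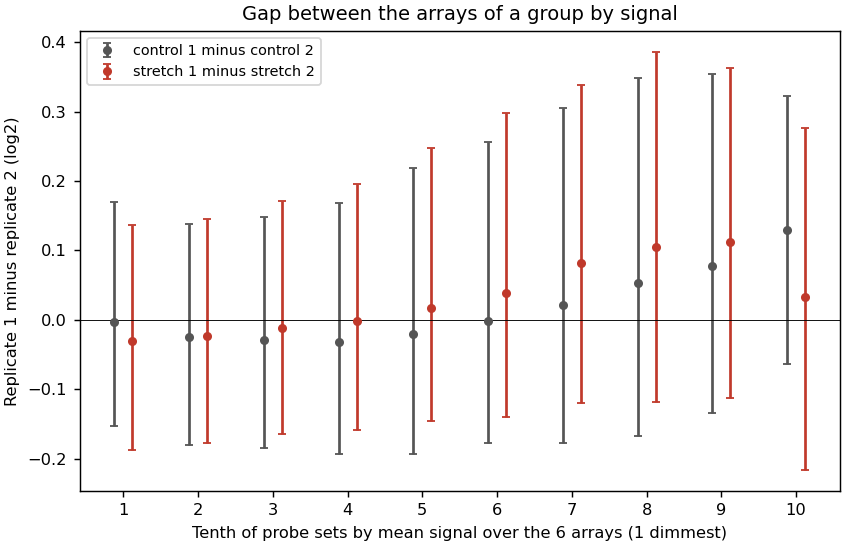
Gap between the 2 arrays of a group (replicate 1 minus replicate 2, log2 units, vertical axis) in 10 equal groups of probe sets ordered by mean signal over the 6 arrays (horizontal axis). Points are medians and bars run from the 5th to the 95th percentile of probe sets; the control median moves from -0.03 in group 4 to 0.13 in group 10, the brightest, and the stretch median peaks at 0.11 in group 9.

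Among the called genes were 9 that act when chromosomes attach to the spindle and separate or when division ends. They were grouped after their values were seen. All 9 rose with stretch, as did 51 of the 63 genes called outside the panels. Cks2, a small subunit bound by cyclin-dependent kinases, read 8.89 and 8.92 on the control arrays and 10.71 and 10.73 on the stretch arrays. It thus rose 3.53-fold (1.82 ± 0.12, SE; limma adjusted p = 0.00136), with a gap between replicates of at most 0.03. The centromere proteins Cenpn and Cenpq are built into the inner kinetochore, the plate on which spindle fibres pull. Cenpn went from 8.21 and 8.24 to 9.21 and 9.11 (0.93 ± 0.09; limma adjusted p = 0.0068). Cenpq went from 7.88 and 7.83 to 8.55 and 8.50 (0.67 ± 0.06; limma adjusted p = 0.0068). Zwint and Zwilch belong to the outer kinetochore and its checkpoint. Zwint read 11.86 and 11.81 in controls and 12.70 and 12.69 with stretch, a rise of 0.86 ± 0.12. Zwilch rose by 0.55 ± 0.08, from 7.66 and 7.67 to 8.22 and 8.20. The condensin subunit Smc4, which folds chromosomes, rose by 0.57 ± 0.08, from 7.72 and 7.80 to 8.37 and 8.28. The kinesin Kif20b, which acts at the end of division, rose by 0.81 ± 0.10, from a dim 7.32 and 7.21 to 8.15 and 8.00. Cdca8 (borealin, of the chromosomal passenger complex) read 7.96 and 7.95 in controls and 8.38 and 8.38 with stretch, a rise of 0.42 ± 0.06. Hmmr, a spindle protein, rose by 0.49 ± 0.06 on the probe set 1370461_at, from a dim 7.55 and 7.52 to 8.01 and 8.04. No stretch array of these 9 genes overlapped a control array, which held for all 107 calls and, upward, for 19.4% of all probe sets. Leaving out the first or second control array kept 2 or 1 of the 9 calls, and leaving out the first or second stretch array kept 1 or 3. Cks2 was called in each case. Without the mean-variance trend 4 of the 9 calls remained, and with the dimmest 30% of probe sets left out 7 remained.

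The wider lists of this process were chosen after values were seen and are described without a test. Of 39 measured genes of the kinetochore and spindle checkpoint, 4 were called up and 0 down, against 0.457% up and 0.0633% down among all genes. Their median change was 0.11 and 32 of 39 lay above 0, against a median of 0.0043 and 51.8% of all 14217 genes. Of 41 mitotic kinases, kinesins, condensins and spindle proteins, 4 were called up, with a median of 0.10. By size, 6 of the 41 lay 0.5 or more above control without overlap, against 1.27% of all genes. Plk4, the kinase that starts centriole duplication, read 7.27 and 7.34 in controls and 8.23 and 7.99 with stretch, but did not pass (limma adjusted p = 0.0674). The other condensin subunit Smc2 had one of the widest gaps between the stretch arrays, at 9.60 and 8.88 against 8.72 and 8.46 in controls. DNA replication genes lay near 0. Limma called 0 of 35 measured members, and the median change was -0.02 with 13 above 0. Of the 35, 3 had an unadjusted limma p under 0.05, against 1029 of all 14217 genes. The medians of the kinetochore list in the 4 pairs of arrays ran from 0.06 to 0.18, and those of the mitotic list from 0.07 to 0.13.

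**Figure D3:**
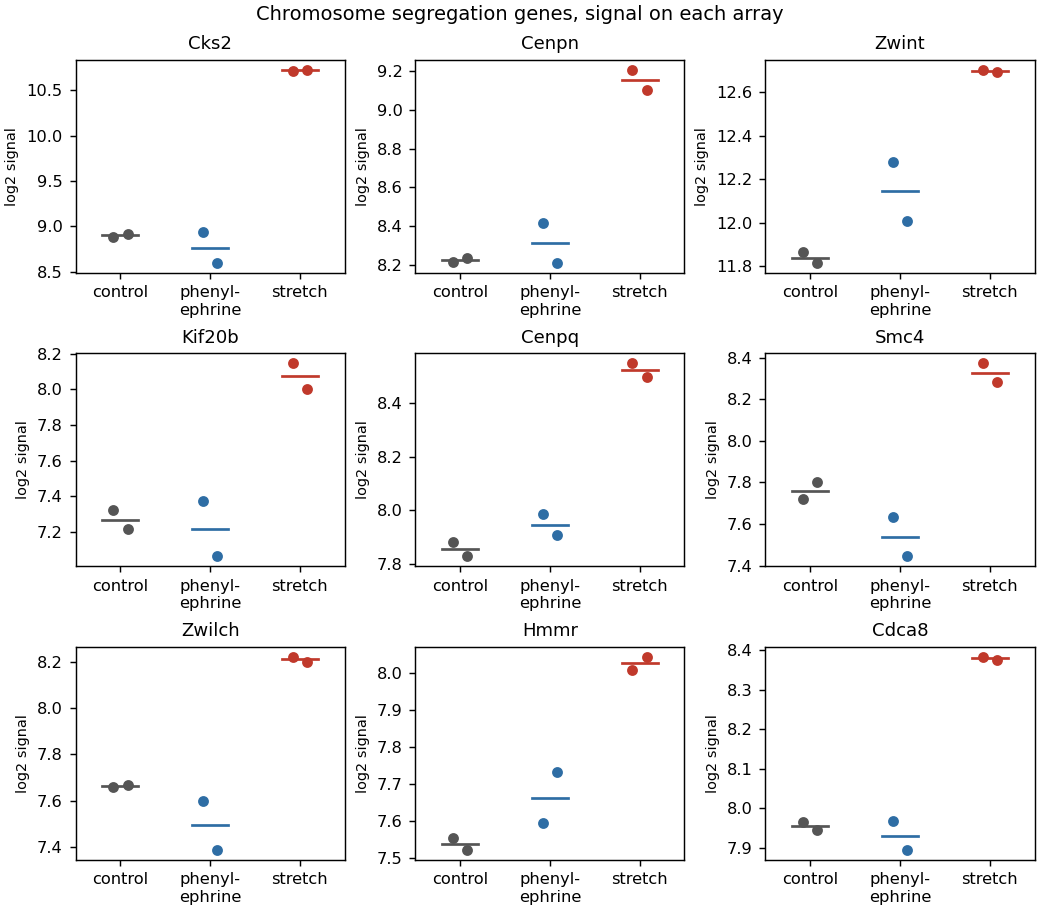
Log2 signal of 9 chromosome segregation genes on each array (points) with the mean of each group of 2 arrays (lines), for control, phenylephrine and stretch; the vertical axes differ between genes and do not start at 0. Both stretch arrays lie above all control and phenylephrine arrays in each of the 9 genes.

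Promoters of genes in this group often hold a pair of short elements known from cell cycle genes, and those of Cks2 and Kif20b are shown because these members rose by 1.82 and 0.81. Sequences are RefSeq windows on assembly GRCr8, from 250 bases before to 50 bases after the gene start, written in the direction of the gene. Capitals mark CCAAT, the box read by the factor NF-Y, and TTTGAA, the core of the cell cycle homology region, on either strand; the marked letters of the 2 motifs share no base in these windows. The Cks2 window lies at chr17:13727470-13727769 on the minus strand and the Kif20b window at chr1:241840766-241841065 on the plus strand.
Cks2: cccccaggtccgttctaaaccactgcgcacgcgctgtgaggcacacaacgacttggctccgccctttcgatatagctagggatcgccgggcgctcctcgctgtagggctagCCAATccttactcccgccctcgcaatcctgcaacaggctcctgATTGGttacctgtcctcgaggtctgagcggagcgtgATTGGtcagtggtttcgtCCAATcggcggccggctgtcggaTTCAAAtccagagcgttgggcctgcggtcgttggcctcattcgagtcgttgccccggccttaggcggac
Kif20b: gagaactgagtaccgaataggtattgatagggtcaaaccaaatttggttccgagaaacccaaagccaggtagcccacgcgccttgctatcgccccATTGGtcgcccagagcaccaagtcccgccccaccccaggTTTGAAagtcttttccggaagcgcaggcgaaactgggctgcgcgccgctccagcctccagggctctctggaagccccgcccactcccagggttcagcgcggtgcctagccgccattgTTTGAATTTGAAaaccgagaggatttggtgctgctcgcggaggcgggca
The Cks2 window holds 4 CCAAT boxes and 1 TTTGAA, and the Kif20b window 1 and 3. Of the 9 called genes 7 have a window, and 7 of these 7 hold CCAAT and 5 hold TTTGAA. Over 27457 rat genes with a window the shares were 39.6% and 19.4%. Of the mitotic list, 26 of 36 windows held TTTGAA, against 15 of 35 in the kinetochore list and 3 of 33 in the DNA replication list. CCAAT was present in 27, 20 and 21 of them. The motifs were picked after the calls were known, and a match is a description of the letters only.

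Transfer RNA charging and amino acid uptake formed another group of rises, most of them of middle size. The cytosolic aminoacyl-tRNA synthetases attach each amino acid to its tRNA. Of 19 measured synthetases 2 were called up and 0 down, but 9 lay 0.5 or more above control without overlap, a size reached by 1.27% of all genes upward and 0.246% downward, and 18 lay above 0. After quantile normalization 11 of the 19 were called up, as were 203 of all 14217 genes. Their median change of 0.49 was the highest of the 46 families, and it stayed between 0.41 and 0.59 in the 4 pairs of arrays. Wars1, for tryptophan, went from 10.21 and 10.15 to 11.02 and 11.01 (0.83 ± 0.12; limma adjusted p = 0.0422). Gars1, for glycine, went from 11.14 and 11.07 to 11.93 and 11.86 (0.80 ± 0.11; limma adjusted p = 0.0424). Sars1, for serine, changed more but fell just outside the threshold. It read 11.19 and 11.13 in controls and 12.18 and 12.03 with stretch (0.95 ± 0.14; limma adjusted p = 0.0519). Yars1 differed by 0.79 ± 0.12 and Nars1 by 0.66 ± 0.15, also without passing. Eprs1, which joins glutamate and proline to their tRNAs, was called on a dim probe set, 1382040_at (0.40 ± 0.06), while its brightest differed by 0.76 ± 0.12 with a limma adjusted p of 0.0586. The synthetases are known targets of ATF4 in part, and the ATF4 panel itself was set aside here.

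Among 24 measured amino acid transporters, 3 were called up, 0 down, and the median was 0.15. Slc7a1, the carrier of arginine and lysine, read 9.88 and 9.97 in controls and 10.93 and 10.93 with stretch, a 2.01-fold rise (1.00 ± 0.11; limma adjusted p = 0.0144). Slc1a4, a carrier of small neutral amino acids, rose by 0.90 ± 0.13, from 9.09 and 9.03 to 10.06 and 9.88. Slc7a5, the light chain of the large neutral amino acid exchanger, rose by 0.84 ± 0.11, from 9.03 and 9.26 to 9.93 and 10.04. Its heavy chain Slc3a2 differed by 0.73 ± 0.12 without passing (limma adjusted p = 0.0762). None of these stretch values overlapped the controls, a pattern shared by all 107 calls and, upward, by 19.4% of all probe sets. Of the 6 called transport and charging genes, 0 remained called whichever of the 4 arrays (control replicate 1 or 2, stretch replicate 1 or 2) was left out.

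The windows of Slc7a1 and Slc1a4 are shown because both carry TGATGNAA, the composite element of ATF4 and C/EBP factors, on either strand, in capitals. The Slc7a1 window lies at chr12:11664238-11664537 on the plus strand, and the Slc1a4 window at chr14:98761513-98761812 on the minus strand.
Slc7a1: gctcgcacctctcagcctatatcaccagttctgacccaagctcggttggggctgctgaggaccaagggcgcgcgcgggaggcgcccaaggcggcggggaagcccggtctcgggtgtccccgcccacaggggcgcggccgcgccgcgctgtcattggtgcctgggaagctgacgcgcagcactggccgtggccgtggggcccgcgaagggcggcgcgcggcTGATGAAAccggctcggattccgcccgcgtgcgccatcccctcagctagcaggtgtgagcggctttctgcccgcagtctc
Slc1a4: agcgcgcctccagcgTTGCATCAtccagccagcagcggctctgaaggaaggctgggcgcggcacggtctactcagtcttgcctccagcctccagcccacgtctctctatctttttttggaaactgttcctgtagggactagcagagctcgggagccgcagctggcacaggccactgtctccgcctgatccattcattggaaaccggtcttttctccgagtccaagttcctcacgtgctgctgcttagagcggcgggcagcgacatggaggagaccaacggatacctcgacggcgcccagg
The element was in 7 of 17 synthetase windows (Aars1, Cars1, Iars1, Mars1, Nars1, Tars1 and Yars1) and 3 of 19 transporter windows, against 4.16% of all 27457 genes with a window. Of the called transport and charging genes, 5 have a window, and 2 of these 5 hold the element, namely Slc7a1 and Slc1a4. The window of Wars1 is among the others, which do not hold these letters.

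Most genes that build ribosomes lay above 0, with a small median. They were listed after values were seen, as 126 factors of ribosomal RNA synthesis and processing and of subunit assembly, of which 121 were measured. Of these, 115 lay above 0, against 51.8% of all genes, and the median change was 0.23. Limma called 0 on the brightest probe sets, with 49 unadjusted p-values under 0.05, against 1029 of all 14217 genes. After quantile normalization 12 were called up, and the median was 0.22. By size, 14 lay 0.5 or more above control without overlap, against 1.27% of all genes. Rrp12, a factor of subunit maturation and export, was called on its dimmer probe set 1383675_at (1.04 ± 0.12; limma adjusted p = 0.0139) and differed by 0.54 ± 0.09 on the brightest (limma adjusted p = 0.0687). Gnl3, the nucleolar GTPase nucleostemin, read 10.17 and 9.92 in controls and 10.80 and 10.70 with stretch. The small nucleolar ribonucleoprotein genes Nhp2, Nop58 and Gar1 differed by 0.65 ± 0.12, 0.63 ± 0.19 and 0.63 ± 0.16. Nop58 was near-identical within each group, at 10.85 and 10.84 against 11.47 and 11.48, yet had a limma adjusted p of 0.501. The list's median ranged from 0.14 to 0.34 in the 4 pairs of arrays, with 102 to 116 of 121 genes above 0. With phenylephrine the list's median was 0.06, a comparison that shares the control arrays, and medians of other lists follow in the direct comparison below.

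Other parts of the protein economy also lay above 0, with no call in limma. All 13 measured genes of the CCT chaperonin and prefoldin, which fold actin and tubulin, lay above 0, with a median of 0.19 and no change above 0.27. Limma called 0 of them, with 0 unadjusted p-values under 0.05. Of 36 proteasome subunits 34 lay above 0, with a median of 0.15 and 2 unadjusted p-values under 0.05. Their median was 0.05 and 0.08 in the pairs with control replicate 1 and 0.24 and 0.25 in the pairs with control replicate 2, and the CCT genes and initiation factors likewise stood higher in the pairs with control replicate 2. Of 34 translation initiation factors 29 lay above 0, with a median of 0.13, 0 calls and 10 unadjusted p-values under 0.05. Eif2b3, a subunit of the nucleotide exchange factor of translation initiation, differed by 0.70 ± 0.11 (limma adjusted p = 0.0609). Nuclear transport had 0 calls among 27 genes, with 8 unadjusted p-values under 0.05. The importin Ipo5 read 10.50 and 10.37 in controls and 11.19 and 11.10 with stretch, and the Ran regulator Rangap1 9.78 and 9.89 against 10.48 and 10.55, differences of 0.71 ± 0.11 and 0.68 ± 0.11 that did not pass (limma adjusted p = 0.0613 and 0.0687). After quantile normalization 2 proteasome subunits, 3 initiation factors and 3 nuclear transport genes were called up, and 0 CCT and prefoldin genes.

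**Figure D4:**
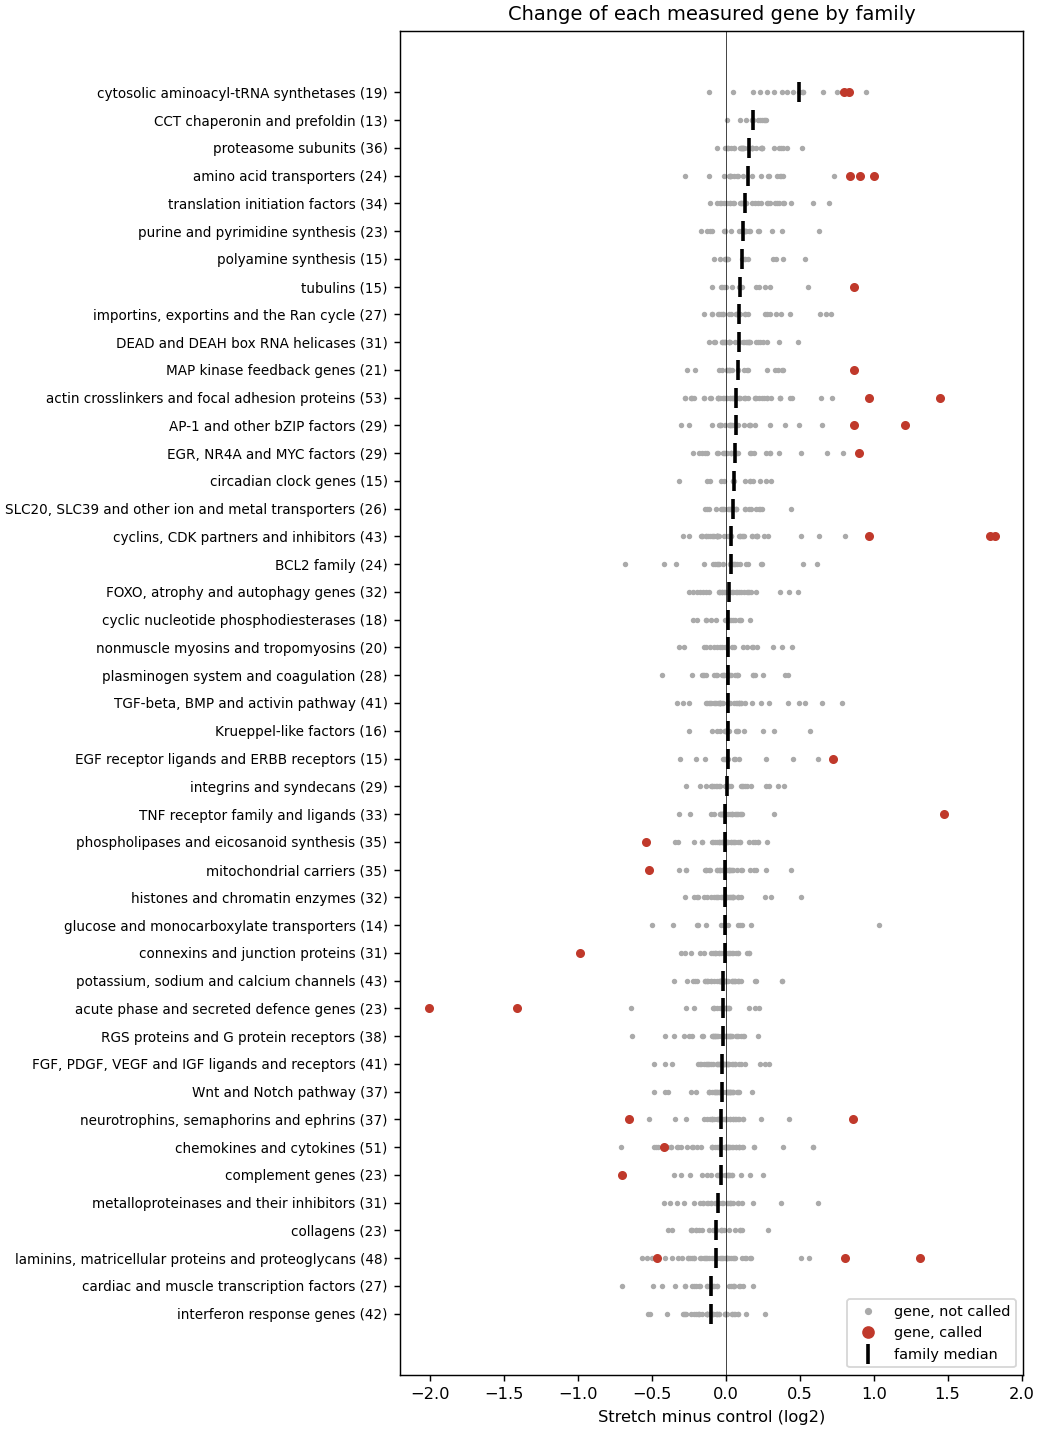
Stretch minus control (log2 units, horizontal axis) of each measured gene in 45 of the 46 families, ordered by family median; numbers in parentheses are measured genes. Grey points were not called, filled circles were called in limma and vertical ticks are medians; the synthetases stand highest with a median of 0.49, and cardiac transcription factors and interferon response genes lowest with -0.10.

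The called transcription factors were few members of their families. Fosl1, the Fra-1 subunit of AP-1, read 8.35 and 8.38 in controls and 9.61 and 9.53 with stretch, a 2.31-fold rise (1.21 ± 0.08; limma adjusted p = 0.0011). Maff, a small Maf protein, went from 8.29 and 8.20 to 9.12 and 9.12 (0.87 ± 0.08; limma adjusted p = 0.00493). These were 2 of 29 measured AP-1 and bZIP genes, whose median was 0.07. Myc, a driver of ribosome and growth genes, rose by 0.90 ± 0.11, from 9.22 and 9.09 to 10.16 and 9.94 (limma adjusted p = 0.0223). Mybl1, a relative of the cell cycle factor B-Myb, rose by 0.84 ± 0.10, from 7.97 and 7.90 to 8.88 and 8.68. For neither factor did stretch and control arrays overlap, as in all 107 calls. Lin54, a DNA-binding part of the complex that B-Myb joins, had a wide stretch gap, at 9.82 and 9.38 against 8.89 and 8.69, and was not called. Nuclear receptor Nr4a3 differed by 0.68 ± 0.11 and the AP-1 related Csrnp1 by 0.79 ± 0.13 without passing. Of the 4 calls 2 remained without control replicate 1, 1 without control replicate 2, 1 without stretch replicate 1 and 3 without stretch replicate 2, Fosl1 among them each time.

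Signals between cells and to the matrix formed the next group. Tnfrsf12a, the receptor of the cytokine TWEAK, rose 2.78-fold, from 10.54 and 10.63 to 11.98 and 12.14 (1.48 ± 0.12; limma adjusted p = 0.00318). It was the only called member of 33 measured TNF receptors and ligands. The matricellular genes Ccn1 and Ccn2 encode secreted regulators of adhesion. Ccn1 went from 9.50 and 9.38 to 10.87 and 10.63 (1.32 ± 0.16; limma adjusted p = 0.0197). Ccn2 went from 13.28 and 13.05 to 13.91 and 14.03 (0.81 ± 0.11; limma adjusted p = 0.037), near the top of the array's range. Folds can be compressed there, which was not tested. Bdnf, a neurotrophin, rose by 0.86 ± 0.09, from a dim 7.93 and 7.74 to 8.71 and 8.67. Hbegf, an EGF receptor ligand, rose by 0.73 ± 0.10, from 7.89 and 7.83 to 8.67 and 8.50. Pvr, an adhesion receptor of the nectin family, rose by 0.92 ± 0.11. Areg, another EGF receptor ligand, differed by 0.62 ± 0.12, and the ligand Tgfb3 by 0.65 ± 0.13, both short of the threshold. Of these 6 calls, 2 remained without control replicate 1, and Tnfrsf12a alone without control replicate 2 or without either stretch array.

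The windows of Ccn1 and Ccn2 are shown as known targets of TEAD factors, with the core GGAATG in capitals on either strand. They lie at chr2:237225640-237225939 and chr1:22624565-22624864, both on the minus strand.
Ccn1: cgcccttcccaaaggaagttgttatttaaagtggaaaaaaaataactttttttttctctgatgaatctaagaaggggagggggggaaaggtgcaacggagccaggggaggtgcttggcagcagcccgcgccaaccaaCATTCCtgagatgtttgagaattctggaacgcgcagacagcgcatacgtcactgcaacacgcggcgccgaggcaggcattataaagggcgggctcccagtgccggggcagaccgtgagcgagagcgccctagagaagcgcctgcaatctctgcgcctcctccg
Ccn2: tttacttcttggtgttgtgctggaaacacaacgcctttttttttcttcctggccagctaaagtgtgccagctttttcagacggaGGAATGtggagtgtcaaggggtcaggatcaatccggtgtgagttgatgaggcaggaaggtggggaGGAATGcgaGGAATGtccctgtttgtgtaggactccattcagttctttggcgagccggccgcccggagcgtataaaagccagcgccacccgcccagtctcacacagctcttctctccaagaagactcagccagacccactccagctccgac
Ccn2 holds 3 copies, each in the direction of the gene, and Ccn1 holds 1 in the opposite direction. The core is in 4128 of all 27457 genes with a window.

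Cytoskeletal rises were few and spread over several filament systems. Cnn1, the smooth muscle actin-binding protein calponin, rose 2.72-fold, from 8.35 and 8.25 to 9.80 and 9.69 (1.45 ± 0.13; limma adjusted p = 0.00502). The α-actinin gene Actn1, the nonmuscle crosslinker at adhesions, was called on both of its probe sets, by 0.97 ± 0.13 and 0.91 ± 0.11. Cnn1 and Actn1 were the 2 genes called among 53 measured actin crosslinkers and focal adhesion proteins, whose median was 0.07. Tubb6, a β-tubulin, rose by 0.87 ± 0.12, from 10.19 and 10.20 to 11.12 and 11.01. Filamin C, Flnc, and the actin elongation factor Enah differed by 0.64 ± 0.12 and 0.72 ± 0.15 and did not pass. No stretch value of these 5 genes overlapped its controls, a pattern shared by all 107 calls and, upward, by 19.4% of all probe sets. Of the 3 calls, 1 remained without control replicate 1, 0 without control replicate 2, 0 without stretch replicate 1 and 1 without stretch replicate 2.

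Gadd45g, Plk2 and Dusp2, grouped here after their values were seen, are genes of growth arrest and kinase feedback that rose. Gadd45g, a growth arrest protein that acts on stress kinases, went from 10.17 and 10.03 to 11.96 and 11.82, 3.46-fold higher (1.79 ± 0.12; limma adjusted p = 0.00112). Plk2, a polo-like kinase of the stress response, went from 10.45 and 10.36 to 11.34 and 11.40 (0.97 ± 0.11; limma adjusted p = 0.0149). Dusp2, a phosphatase that turns off MAP kinases, rose by 0.87 ± 0.08, from 8.34 and 8.29 to 9.25 and 9.11. Among 21 measured MAP kinase feedback genes Dusp2 was the only call, and 17 lay above 0. The inhibitor of cyclin-dependent kinases Cdkn1a differed by 0.51 ± 0.14, with no overlap and no call. Gadd45g alone of the 3 remained called without control replicate 1, without control replicate 2 and without stretch replicate 1, and 2 remained without stretch replicate 2.

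Enzymes and protein turnover genes that rose included Maoa, the monoamine oxidase that breaks down noradrenaline and serotonin. It went from 10.08 and 10.34 to 11.47 and 11.87 (1.46 ± 0.17; limma adjusted p = 0.0154), and its gap of 0.40 between the stretch arrays was the widest among the called genes grouped here. Zfand2a, a zinc finger protein tied to the proteasome under stress, rose by 1.10 ± 0.11, from 9.24 and 9.21 to 10.42 and 10.23. Uchl1, a deubiquitinating enzyme, rose by 0.88 ± 0.11, Egln3, an oxygen-sensing prolyl hydroxylase, by 0.78 ± 0.11, and the steroid sulfatase Sts by 0.59 ± 0.08. With Rrp12 these make 6 genes, of which 0 remained called without either control array, 1 without stretch replicate 1 and 3 without stretch replicate 2.

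The largest rise outside the panels belonged to a gene of little known function. Mllt11, a small protein first found in leukaemia fusions, read 9.44 and 9.54 in controls and 11.61 and 11.59 with stretch, 4.31-fold higher (2.11 ± 0.11; limma adjusted p = 0.000532). Akip1, which binds protein kinase A in heart muscle, has 8 probe sets, of which 4 were called. On its brightest, 1392938_s_at, it went from 11.57 and 11.53 to 12.74 and 12.81 (1.23 ± 0.13; limma adjusted p = 0.011). Phf24, a PHD finger protein, rose on both of its probe sets, by 0.99 ± 0.11 and 0.65 ± 0.09. Ifrd1, a transcriptional cofactor of muscle, rose by 1.06 ± 0.14, from 10.59 and 10.45 to 11.69 and 11.48. Rad18, a ubiquitin ligase of DNA damage tolerance, rose by 0.86 ± 0.11, and Resf1, a nuclear protein, by 0.65 ± 0.09. Noct, the clock-controlled gene nocturnin, was tight in both groups at 8.53 and 8.53 against 9.12 and 9.09. Avpi1, Nrip3 and Plcxd2 rose by 0.68 ± 0.10, 0.56 ± 0.08 and 0.66 ± 0.10. Probe sets with no symbol included changes as large: 1389990_at rose by 2.04 ± 0.17 and 1370988_at by 1.90 ± 0.14. Of these 10 named genes, 2 remained called without control replicate 1 and 4 without stretch replicate 2, while Mllt11 alone remained without control replicate 2 or without stretch replicate 1.

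**Figure D5:**
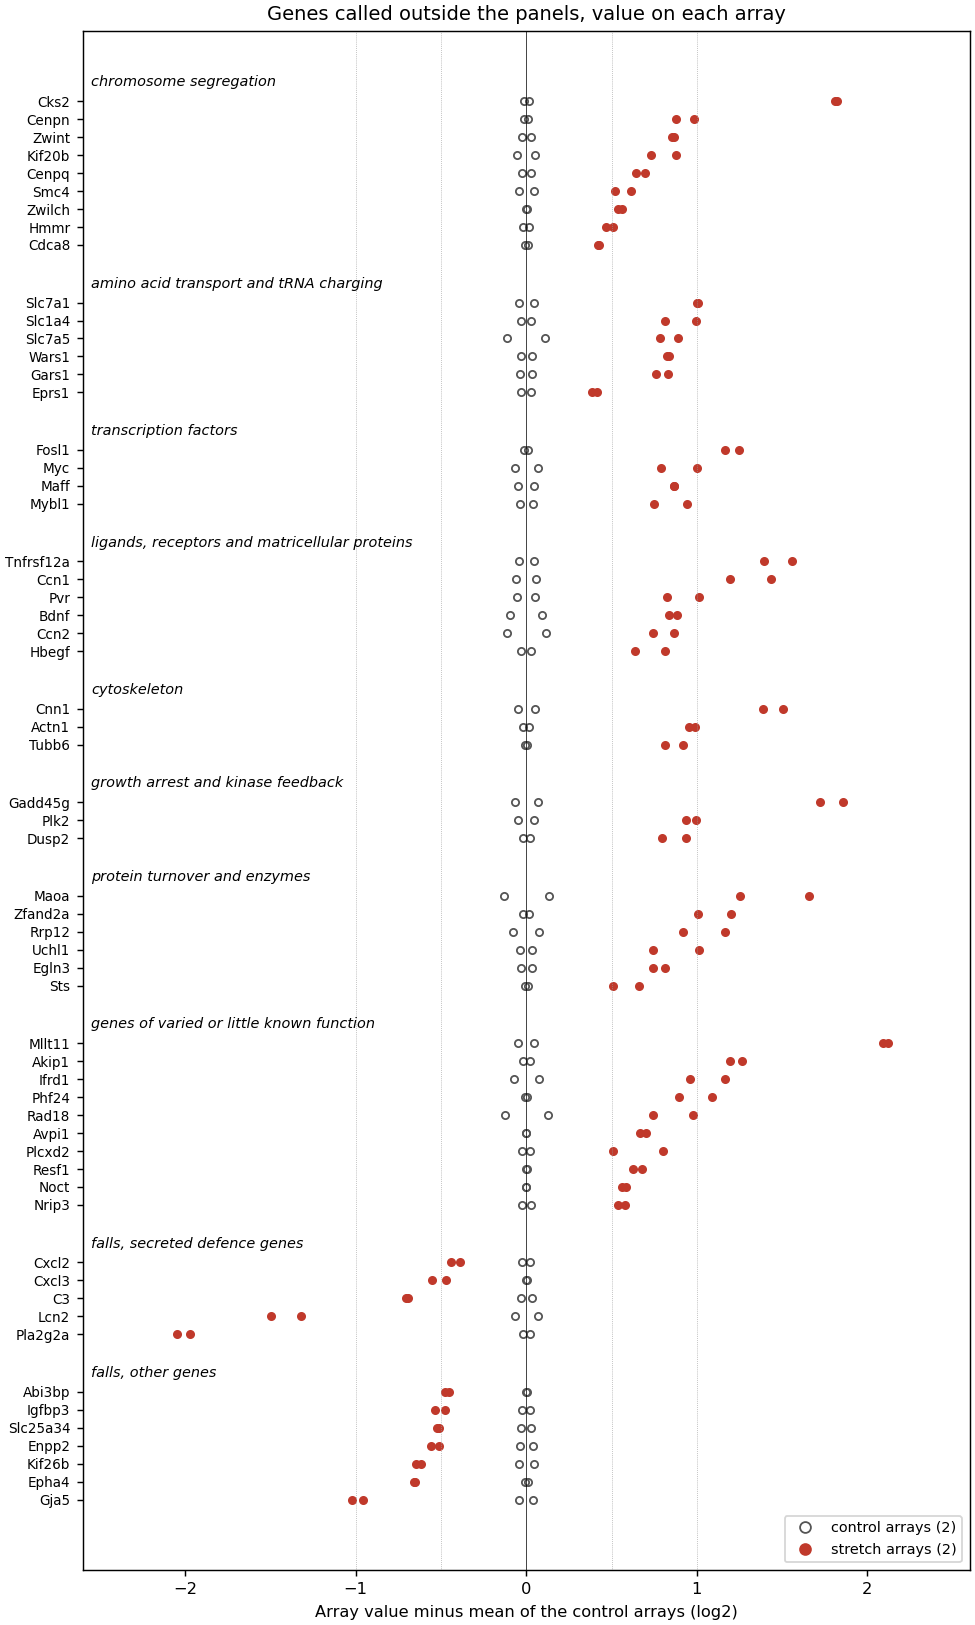
Value of each array minus the mean of the control arrays (log2 units, horizontal axis) for the genes called outside the panels that the text groups by role, one line per gene on its brightest called probe set. Open circles are the 2 control arrays and filled circles the 2 stretch arrays. They do not overlap in any line, as in all 107 called probe sets, and Maoa has the widest stretch gap, 0.40.

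The falls were fewer, and their largest members were secreted proteins of innate defence. Pla2g2a, a secreted phospholipase A2 that attacks bacterial membranes, read 12.57 and 12.53 in controls and 10.58 and 10.51 with stretch, 4.02-fold lower (-2.01 ± 0.12; limma adjusted p = 0.000803). Lcn2, a lipocalin that withholds iron from bacteria, went from 11.38 and 11.24 to 9.99 and 9.82, 2.66-fold lower (-1.41 ± 0.12; limma adjusted p = 0.00451). They were the 2 calls among 23 measured acute phase and secreted defence genes. Complement component C3 went from 9.36 and 9.29 to 8.63 and 8.62 (-0.70 ± 0.08). The neutrophil chemokine Cxcl2 went from 8.13 and 8.08 to 7.66 and 7.72 (-0.42 ± 0.06), and Cxcl3 was called on a dimmer probe set, 1370633_at (-0.51 ± 0.07). Cxcl6, a further chemokine for neutrophils, was lower by a larger amount but its control arrays stood apart, at 8.80 and 8.46 against 7.92 and 7.92 with stretch (limma adjusted p = 0.0519). Ccl20, a chemokine for lymphocytes, differed upward by 0.59 ± 0.13 without a call, so the chemokines did not all move one way: of 51 measured, 21 lay above 0. Of the 5 calls in this group, Pla2g2a alone remained without control replicate 1, and 2 remained without control replicate 2 and without each stretch array, Pla2g2a each time.

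Interferon response genes lay slightly lower as a list. Of 42 measured, 32 were below 0 and the median was -0.10, with 0 calls in limma and 11 unadjusted p-values under 0.05. The deconjugase Usp18 and its substrate Isg15 had the lowest values, with Usp18 at 9.61 and 9.49 in controls and 9.05 and 8.99 with stretch. Isg15 read 9.18 and 9.03 against 8.67 and 8.51. Both were without overlap and without a call (limma adjusted p = 0.0762 and 0.0879). After quantile normalization 2 of the 42 were called down.

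Other falls touched conduction, guidance and matrix. Gja5, the gap junction protein connexin 40 of atrial and conduction tissue, went from 11.67 and 11.59 to 10.68 and 10.61, 1.98-fold lower (-0.99 ± 0.13; limma adjusted p = 0.0327). It was the only call among 31 measured connexins and junction proteins. Epha4, an ephrin receptor, went from 9.20 and 9.22 to 8.55 and 8.56 (-0.65 ± 0.07), and the kinesin Kif26b fell by 0.63 on the probe set 1376617_at. Enpp2, the enzyme autotaxin that makes lysophosphatidic acid, fell by 0.54, the mitochondrial carrier Slc25a34 by 0.52, Igfbp3, a binding protein of insulin-like growth factors, by 0.51 on the probe set 1386881_at, and the matrix protein Abi3bp by 0.46. The matrix genes Dpt and Lum, both on the fibroblast marker list, were lower without a call. Dpt read 9.57 and 9.59 in controls and 9.01 and 9.02 with stretch, while Lum read 12.14 and 11.85 against 11.65 and 11.28. The fibroblast markers as a whole moved with these falls, by the list median of -0.21 given above, and their part in the falls was not tested. Of these 7 calls 1 remained without control replicate 1, and 0 remained without control replicate 2 or without either stretch array.

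Cardiac and muscle transcription factors also lay low, with a median of -0.10 and 18 of 27 below 0. Limma called 0, with 3 unadjusted p-values under 0.05, and 2 down after quantile normalization, against 78 of all 14217 genes. Hopx, a homeodomain-only cofactor of heart development, was lowest at 9.34 and 9.09 against 9.99 and 9.83 in controls (limma adjusted p = 0.109). Beyond these lists, the receptor gene Agtr1a, for angiotensin II, read 8.96 and 8.72 in controls and 8.25 and 8.16 with stretch, and the cell death gene Bcl2l11 read 10.95 and 10.79 against 10.26 and 10.12, neither called. In total, 19 of the 46 families had at least 1 call, 11 of them with rises only, 6 with falls only and 2 with both, and 27 had none. Collagens leaned down with 0 calls in limma: 17 of 23 lay below 0, the median was -0.07 and 5 had an unadjusted p under 0.05. Without overlap, 13 of the 23 were lower and 2 higher, against 2764 and 3074 of all 14217 genes. Their median ran from -0.08 to -0.04 in the 4 pairs of arrays. Families near 0 with 0 calls in limma included integrins and syndecans (median 0.01, 3 of 29 with an unadjusted p under 0.05, with 1 call after quantile normalization). The Wnt and Notch pathways were another (-0.03, 3 of 37).

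Different probe sets of a gene mostly shared a direction, but seldom a call. Of the 63 genes called outside the panels, 40 had 1 probe set. Of the other 23, more than 1 probe set was called in 3, and all were called in 2. By direction alone, 19 of the 23 had all probe sets in 1 direction and 4 had an opposite one, namely Cxcl3, Eprs1, Kif26b and Myh1. Myh1, a fast skeletal myosin heavy chain, rose by 1.46 ± 0.16 on the probe set 1377114_at, while its other probe sets were lower with stretch, down to -0.66. Myosin heavy chain genes share sequence, so its direction is uncertain. In 8 genes the call was on a probe set other than the brightest: 2310002L09Rikl, Cxcl3, Eprs1, Hmmr, Igfbp3, Kif26b, Myh1 and Rrp12.

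Stretch and phenylephrine were compared directly for the 55 genes called on their brightest probe set. These genes were picked through the stretch arrays, so the shares are a description, and both comparisons with control share the control arrays. Of the 46 that rose with stretch, 25 were also called up with phenylephrine, against 2.41% of all genes, and 21 were not. Of the same 46, 19 differed between the stimuli in limma, 17 of them higher with stretch, against 1.84% of all genes that differed. Of the 9 called probe sets of segregation genes 8 differed, as did 1.33% of all probe sets, and 0 were called up with phenylephrine, as were 2.41% of all genes. Cks2 was 1.96 ± 0.12 above phenylephrine (limma adjusted p = 0.000926), Myc 0.97 ± 0.11 (0.00958) and Fosl1 0.92 ± 0.08 (0.00255). Cnn1 and Avpi1 went the other way, with differences of -1.10 ± 0.13 and -0.89 ± 0.10 for stretch minus phenylephrine. Of the 6 transport and charging genes 0 differed and 5 were also called up with phenylephrine. A missed threshold does not show that the stimuli acted alike. List medians with phenylephrine were 0.34 for the synthetases, 0.15 for proteasome subunits and 0.14 for CCT and prefoldin. They were -0.28 for fibroblast markers, -0.17 for interferon response genes and -0.11 for cardiac and muscle transcription factors. Initiation factors had 0.06, the kinetochore list 0.02 and the mitotic list -0.03. These medians were not tested. Among the 9 falls 3 differed: Pla2g2a was lower with stretch, and Slc25a34 and Abi3bp were lower with phenylephrine. Of these 9 falls, 8 were also called down with phenylephrine. Of the 55 genes 22 differed, a count that became 3 without stretch replicate 1, 8 without stretch replicate 2 and 14 without phenylephrine replicate 2.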

How the data were processed

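RNA of cultured newborn rat cardiomyocytes was measured on 6 single-channel Affymetrix arrays, 2 per group. The authors deposited 1 value per probe set and array, taken here as normalized log2 values because their medians are near-equal and they range from about 6 to 15; no source used here says how probes were summarised or arrays normalized. Of 31099 probe sets, 57 array controls were left out. Genes came from the platform annotation of 2016: 20826 probe sets had 1 symbol, 436 several and 9780 none, and 20758 matched RefSeq GRCr8. The limma 3.58.1 fit (R 4.3.3; lmFit, eBayes with a mean-variance trend) used all 6 arrays, 1 mean per group and two-sided tests, with 3 residual and 4.8 prior degrees of freedom. With 2 against 2 arrays the smallest exact permutation p is 0.333. The fit was tested on simulated data. Named genes were, outside the panels, the 10 largest rises, all falls and the 20 largest rises of 0.5 to 1 log2 past the threshold; from each family up to 4 called members, else the largest difference as a value; and the 10 widest stretch gaps. Of the 46 families, 1 and its called gene are not reported here. Other named genes were chosen after their values were seen. The members and lists were chosen with earlier results of these data known. Alternatives were quantile normalization, median centring, the 4 control and stretch arrays alone, no trend, no dim probe sets, a replicate block, other size bounds, and each array left out.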

Additional observations from a re-analysis of the deposited data

How the results depend on the processing

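None of the genes named by the rule changed direction after quantile normalization or median centring. In the other runs no reversal was possible. Their stretch and control arrays did not overlap, so leaving out an array keeps the direction, and the other fits keep the difference itself. Of the named genes not called, 33 were called with a replicate block and 20 after quantile normalization, Eif2b3, Ipo5, Hopx and Usp18 in both. Other genes given as not passing were not followed singly. Of the list medians named, that of myocyte markers (0.04) was -0.03 after quantile normalization and -0.06 to 0.13 with 1 array left out, that of DNA replication (-0.02) was -0.05 to 0.02 and that of integrins and syndecans (0.01) was -0.02 to 0.04 with 1 array left out. The 107 calls became 386 (72.5% up) after quantile normalization and 1028 (69.9% up) with a replicate block; the 84 outside the panels became 339 (69.6% up, against 85.7%) and 963. All 84 were among the calls of both. Leaving out 1 array gave 26 to 112 calls, and 15 to 89 outside the panels, where 12 of 84 were called whichever control or stretch array was left out. With an arm of 1 array, that array is assumed to vary like the other groups. The 225 mid-size changes became 430 with a lower bound of 0.4 log2 and 121 with 0.6, and 225 to 363 with 1 array left out. The 22 genes that differed from phenylephrine became 38 with the replicate block and 3 to 20 with 1 array left out. Median centring, 4 arrays, no trend and no dim probe sets moved these counts by less than 1.5 times. Of the 84 calls, though, 64 remained without the trend and 69 with 4 arrays, where 7 of 12 falls remained. The labels share only replicate numbers. Deviations of same-numbered control and stretch arrays correlated at 0.673 over probe sets, and those of the other pairs of groups at 0.487 and 0.534, a hint from the data and not the design. The median of all probe sets shifted by less than 0.1 log2. The number of arrays limits the precision.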
